A study of Mus musculus with 26 samples.

Results

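Livers of mice that lack Bmal1 were compared with control livers at CT0, the hour at which the lights had come on before the mice were moved to darkness. The comparison used 6 of the 26 samples of the series, which were chosen by genotype and time from the sample titles. They were 3 RNA-seq libraries from livers labelled Bmal1 knockout and 3 from control livers labelled C57BL/6, all at CT0 and from mice 8 weeks old. The knockouts are described as liver-specific in the submitters' treatment protocol, with neither the allele nor the driver of the deletion named in the labels. All mice, knockout and control, had been kept in a 12 h light and 12 h dark cycle with free access to food and then in complete darkness for 2 days. The 6 livers collected in the same way at CT12 (3 knockout and 3 control) entered the same statistical fit and served to test whether a difference at CT0 differed from that at CT12. The protocol speaks of 3 pairs of mice, and no label ties a library to a litter or day.

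BMAL1, the product of the gene listed here as Arntl, pairs with CLOCK or NPAS2 and binds E-box sequences in DNA. Among its known targets are the repressors of its own activity, the PER and CRY proteins, and the nuclear receptors REV-ERBα and REV-ERBβ (Nr1d1 and Nr1d2), which in turn repress Arntl, Cry1, Npas2 and Nfil3 through elements that the ROR receptors also bind. In liver this network times the expression of genes of lipid, glucose and drug metabolism.

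Expression is given as RPKM (a read count divided by transcript length and by library depth), with 1 transcript per gene symbol. Differences are knockout minus control on the scale of log2(RPKM + 0.5), with the standard error of the fit, and a gene is called where the Benjamini-Hochberg adjusted p of limma was under 0.05. Adding 0.5 understates the differences of genes with low RPKM. Relative to a mean of 1 over the 12 libraries, the depth was 0.76 to 0.988 in the knockout libraries and 1.12 to 1.26 in the control libraries at CT0. Reads recovered from the RPKM steps came to 4830000 to 6680000 in knockout libraries and 7140000 to 7980000 in control libraries, without the most abundant genes, whose steps could not be resolved, and up to a factor common to the libraries.

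The promoters of called clock genes are shown because BMAL1, the REV-ERBs and the PAR bZIP factors act through short elements in such regions. Each window covers 250 bases before to 50 after a transcription start, from RefSeq (build GRCm38.p6), 5′ to 3′ on the gene's strand. Capitals mark an E-box (CACGTG), a D-box (TTACGTAA, TTATGTAA or TTATGCAA) or a ROR element core (TAGGTCA), each searched on both strands. The genes are the 6 called clock genes with the largest differences that had a window in the table. Where a gene had more than 1 window, the one with the most matches is shown.
Nr1d1 (chr11:98775328-98775627, minus strand): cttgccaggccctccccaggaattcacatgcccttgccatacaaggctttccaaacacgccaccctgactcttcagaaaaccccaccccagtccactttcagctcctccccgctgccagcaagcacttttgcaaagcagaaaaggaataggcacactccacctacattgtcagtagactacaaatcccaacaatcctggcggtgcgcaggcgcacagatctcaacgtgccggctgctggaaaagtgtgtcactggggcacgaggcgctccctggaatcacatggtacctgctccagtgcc
Cry1 (chr10:85185005-85185304, minus strand): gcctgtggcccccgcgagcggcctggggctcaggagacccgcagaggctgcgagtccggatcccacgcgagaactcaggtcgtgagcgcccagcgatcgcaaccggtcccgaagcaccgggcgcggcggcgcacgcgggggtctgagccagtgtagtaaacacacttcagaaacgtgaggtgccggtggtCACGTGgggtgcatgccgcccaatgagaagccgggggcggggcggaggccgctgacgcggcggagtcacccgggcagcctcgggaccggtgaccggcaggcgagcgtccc
Arntl (chr7:113207261-113207560, plus strand): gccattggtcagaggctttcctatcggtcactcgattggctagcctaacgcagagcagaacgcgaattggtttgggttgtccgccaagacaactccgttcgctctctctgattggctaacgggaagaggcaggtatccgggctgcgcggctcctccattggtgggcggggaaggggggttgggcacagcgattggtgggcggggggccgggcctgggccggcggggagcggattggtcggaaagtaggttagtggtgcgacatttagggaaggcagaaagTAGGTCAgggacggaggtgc
Nr1d2 (chr14:18239057-18239356, minus strand): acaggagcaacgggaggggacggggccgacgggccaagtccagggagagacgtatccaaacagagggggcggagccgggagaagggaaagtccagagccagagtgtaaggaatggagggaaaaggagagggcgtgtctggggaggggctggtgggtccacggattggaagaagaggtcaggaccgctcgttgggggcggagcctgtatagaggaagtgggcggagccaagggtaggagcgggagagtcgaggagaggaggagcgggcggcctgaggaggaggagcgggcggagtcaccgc
Tef (chr15:81802423-81802722, plus strand): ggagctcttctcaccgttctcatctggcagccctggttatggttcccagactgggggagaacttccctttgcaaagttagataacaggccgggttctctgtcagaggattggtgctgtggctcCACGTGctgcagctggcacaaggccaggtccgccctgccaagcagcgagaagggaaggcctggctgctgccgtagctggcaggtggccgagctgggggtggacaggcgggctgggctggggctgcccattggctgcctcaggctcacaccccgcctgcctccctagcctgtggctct
Per3 (chr4:151044616-151044915, minus strand): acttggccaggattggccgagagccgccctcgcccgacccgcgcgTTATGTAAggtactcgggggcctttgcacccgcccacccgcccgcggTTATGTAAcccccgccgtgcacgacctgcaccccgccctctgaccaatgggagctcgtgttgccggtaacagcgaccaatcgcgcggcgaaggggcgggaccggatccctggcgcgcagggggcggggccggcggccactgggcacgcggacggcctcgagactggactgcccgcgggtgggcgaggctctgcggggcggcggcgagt
The Cry1 and Tef windows hold 1 E-box each, the Arntl window holds 1 ROR core, and the Per3 window holds 2 D-boxes. The Nr1d1 and Nr1d2 windows hold no match to these letters. Of 27025 RefSeq genes with a window, 8.09% held the E-box, 2.1% a D-box and 2.97% the ROR core. Among the 9190 tested genes with a window the shares were 11.8%, 1.75% and 2.64%. For the E-box the share was 7.06% of the 85 genes called higher that had a window and 6.67% of the 60 called lower. For the D-box it was 3.53% of the genes called higher and 11.7% (7 genes) of the genes called lower. The ROR core was held by 1.18% of the genes called higher and 3.33% of the genes called lower.

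Arntl had 5.91, 5.73 and 7.45 RPKM in knockout livers, against 16.3, 15.7 and 15.7 RPKM in control livers. The groups stood apart, and the mean was 6.37 ± 0.944 RPKM in knockout and 15.9 ± 0.370 RPKM in control livers (SD, n = 3 each). The difference of -1.27 ± 0.16 (adjusted p = 0.00189) corresponds to a level 2.41-fold lower in knockout livers. Arntl was read over its only transcript in the files, so these values include any transcript that lacks the deleted part. In bulk liver, fewer cells that express a gene and less RNA per cell cannot be told apart.

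Of 11553 genes tested, 182 were called at CT0 (1.58%). Of these, 101 (0.874%) were higher and 81 (0.701%) were lower in knockout livers. The share of 1.58% is the background for the called counts of the gene lists below. Those lists were chosen with earlier results of these data known. The median difference was 0.96 among the genes called higher and -0.96 among the genes called lower, and 47 of the higher and 34 of the lower genes differed by at least 1 on the log2 scale. All 182 had knockout values that lay wholly outside the control values, as did 10.9% of the tested genes upward and 8.91% downward whether called or not. By limma 1579 genes had an unadjusted p under 0.05. The number of calls depended on single libraries. Without knockout CT0 replicate 1, 58 genes were called higher and 51 lower, and without knockout CT0 replicate 3 the counts were 49 and 48. Without control CT0 replicate 1 they were 66 and 67, without control CT0 replicate 2 they were 46 and 32, and without control CT0 replicate 3 they were 56 and 41. Without control CT12 replicate 1, 79 genes were called higher and 52 lower. In a principal component analysis of the 6 libraries the first component, with 37.6% of the variance, separated knockout (-27.1 to -8.61) from control livers (14.5 to 18.1), and the second, with 22.1%, separated knockout replicate 1 (21.4) from knockout replicate 3 (-22.9).

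**Figure D1:**
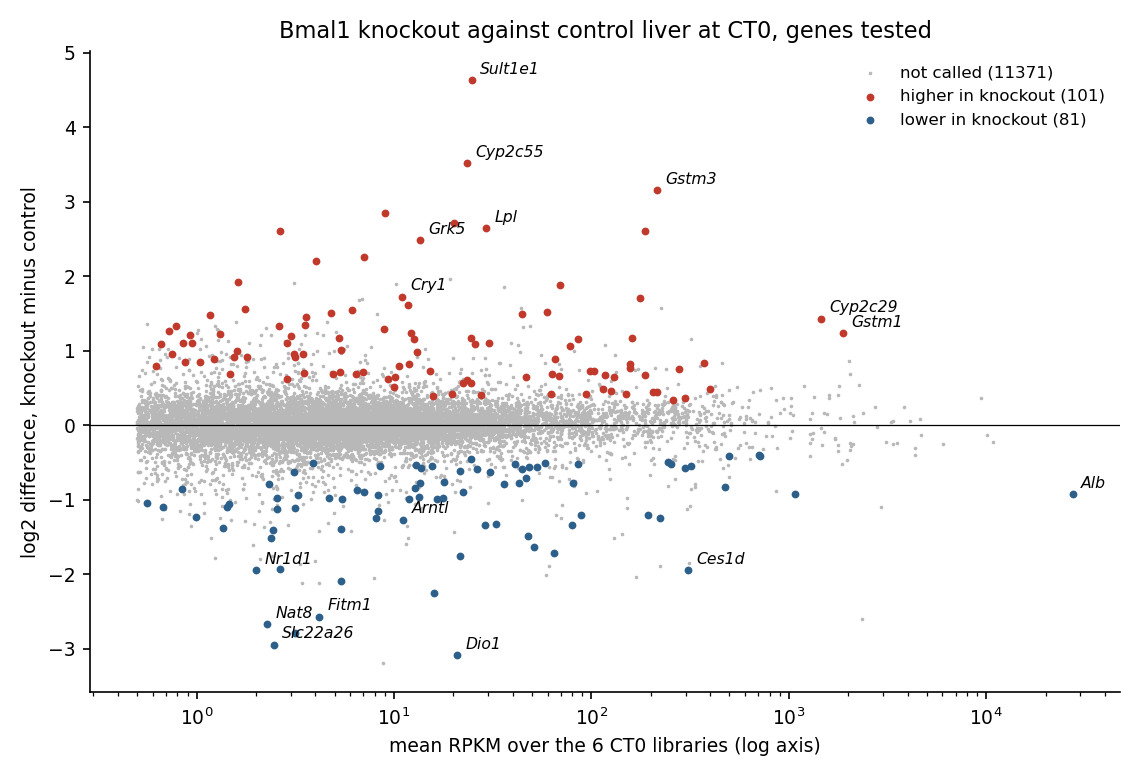
Difference between knockout and control liver at CT0 (vertical axis, log2) against mean RPKM over the 6 libraries (horizontal log axis) for each of 11553 genes. Red points are the 101 genes called higher and blue points the 81 called lower; Sult1e1 lies at 4.63 and Dio1 at -3.09.

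Among the clock's activators, Npas2, whose product can replace CLOCK as the partner of BMAL1, was higher. It stood at 4.99, 4.35 and 4.82 RPKM in knockout livers, against 1.99, 2.68 and 1.94 RPKM in control livers, and rose (0.96 ± 0.13, adjusted p = 0.00473). Clock itself had 13.8, 13.2 and 12.4 RPKM in knockout and 12.6, 13.5 and 12.6 RPKM in control livers, and the groups overlapped (0.02 ± 0.16, adjusted p = 0.97). The paralog Arntl2 was near the RPKM limit for testing, at 0.574 to 0.713 RPKM in knockout and 0.587 to 0.725 RPKM in control livers (-0.02 ± 0.17, adjusted p = 0.973).

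Of the 7 clock repressors tested, 5 were called (71.4%, against 1.58% of all tested genes), each of them higher in knockout livers. The list's median was 0.96, against 0.012 over all tested genes. Cry1 had 17.4, 16.5 and 17.5 RPKM in knockout livers and 5.16, 5.32 and 4.06 RPKM in control livers, the tightest separation of the repressors by p (1.73 ± 0.11, adjusted p = 6.56e-06). Cry2 stood at 8.14, 7.32 and 8.56 RPKM in knockout livers, against 3.97, 4.43 and 6.11 RPKM in control livers (0.69 ± 0.15, adjusted p = 0.0439). Per2 had 5.39, 3.38 and 3.11 RPKM in knockout livers, against 1.496, 0.964 and 1.28 RPKM in control livers (1.33 ± 0.20, adjusted p = 0.00771). The highest Per2 value was that of knockout replicate 1, and the lowest knockout value was still above every control value. Per3, the least expressed of these called repressors, had 1.45, 1.23 and 0.785 RPKM in knockout livers and 0.309, 0.386 and 0.326 RPKM in control livers (0.96 ± 0.19, adjusted p = 0.0315). Bhlhe40, which encodes the E-box repressor DEC1, had 47.1, 31.3 and 27.7 RPKM in knockout livers, against 15.1, 12.6 and 20.8 RPKM in control livers (1.098 ± 0.21, adjusted p = 0.0269).

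The other repressors were not called. Per1, by its representative transcript, had 3.52, 0.566 and 1.41 RPKM in knockout livers and 0.640, 0.848 and 0.239 RPKM in control livers (0.95 ± 0.39, adjusted p = 0.289), and the groups overlapped. Its 4 other transcripts in the files each had every knockout value above every control value, at means of 1.22 to 1.34 RPKM in knockout and 0.433 to 0.466 RPKM in control livers, with knockout replicate 1 far above the other knockout livers in each. Their values were nearly alike and they may share reads, so they are not separate measurements. Bhlhe41 (DEC2) ranged from 0 to 4.10 RPKM in knockout livers and from 0.239 to 1.27 RPKM in control livers (0.19 ± 0.84, adjusted p = 0.956). Gm129, which encodes the repressor CHRONO, was below the RPKM limit for testing, with 0.110, 0.231 and 0.430 RPKM in knockout livers and 0.521, 0 and 0.0972 RPKM in control livers. By limma none of the 8 clock kinases and ubiquitin ligases tested was called or had an unadjusted p under 0.05 (median 0.14).

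The REV-ERB genes Nr1d1 and Nr1d2, whose products repress through ROR elements, both fell. Nr1d1 had 0.271, 0.310 and 0.801 RPKM in knockout livers, against 2.04, 2.05 and 6.57 RPKM in control livers (-1.94 ± 0.37, adjusted p = 0.0254). Nr1d2 had 1.71, 1.49 and 2.02 RPKM in knockout livers, against 3.59, 3.21 and 6.83 RPKM in control livers (-1.11 ± 0.24, adjusted p = 0.042). For both REV-ERB genes control replicate 3 lay well above the other control livers. Rora was at 15.2 to 15.7 RPKM in knockout and 14.6 to 17.0 RPKM in control livers (-0.06 ± 0.11, adjusted p = 0.884), and Rorb was listed at or next to 0 throughout.

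Among the PAR bZIP factors, which activate genes through D-boxes, Tef rose. It had 19.6, 15.5 and 17.6 RPKM in knockout livers, against 8.76, 9.37 and 7.69 RPKM in control livers (0.98 ± 0.11, adjusted p = 0.000946). Its 4 transcripts, which may share reads, each separated the groups. Dbp was low at this hour, at 1.51, 1.84 and 1.63 RPKM in knockout and 0.661, 1.25 and 1.18 RPKM in control livers, and was not called (0.52 ± 0.29, adjusted p = 0.484). Hlf overlapped between the groups (0.08 ± 0.19, adjusted p = 0.904). The D-box repressor gene Nfil3 had 7.85, 7.94 and 6.80 RPKM in knockout livers and 10.5, 12.98 and 14.3 RPKM in control livers, with no overlap, and just missed the threshold (-0.69 ± 0.16, adjusted p = 0.0533). Leaving out each of the 12 libraries in turn ended some of these calls. The number of libraries whose absence did so and the highest adjusted p were as follows: Cry2 (10 of 12, up to 0.174 without control CT0 replicate 2), Bhlhe40 (3 of 12, up to 0.122 without control CT0 replicate 2), Per3 (6 of 12, up to 0.111 without knockout CT0 replicate 1), Nr1d1 (2 of 12, up to 0.0889 without knockout CT0 replicate 1) and Nr1d2 (9 of 12, up to 0.112 without knockout CT0 replicate 1). Arntl, Npas2, Cry1, Per2 and Tef were called in every such fit. With only the 6 CT0 libraries, the calls of Cry2 (adjusted p = 0.115), Bhlhe40 (0.101), Per3 (0.0883), Nr1d1 (0.101) and Nr1d2 (0.115) ended. Arntl (0.00575), Npas2 (0.0353), Cry1 (0.00124), Per2 (0.0437) and Tef (0.0223) kept theirs. Nfil3 passed the threshold without control CT0 replicate 1 and without knockout CT12 replicate 1.

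**Figure D2:**
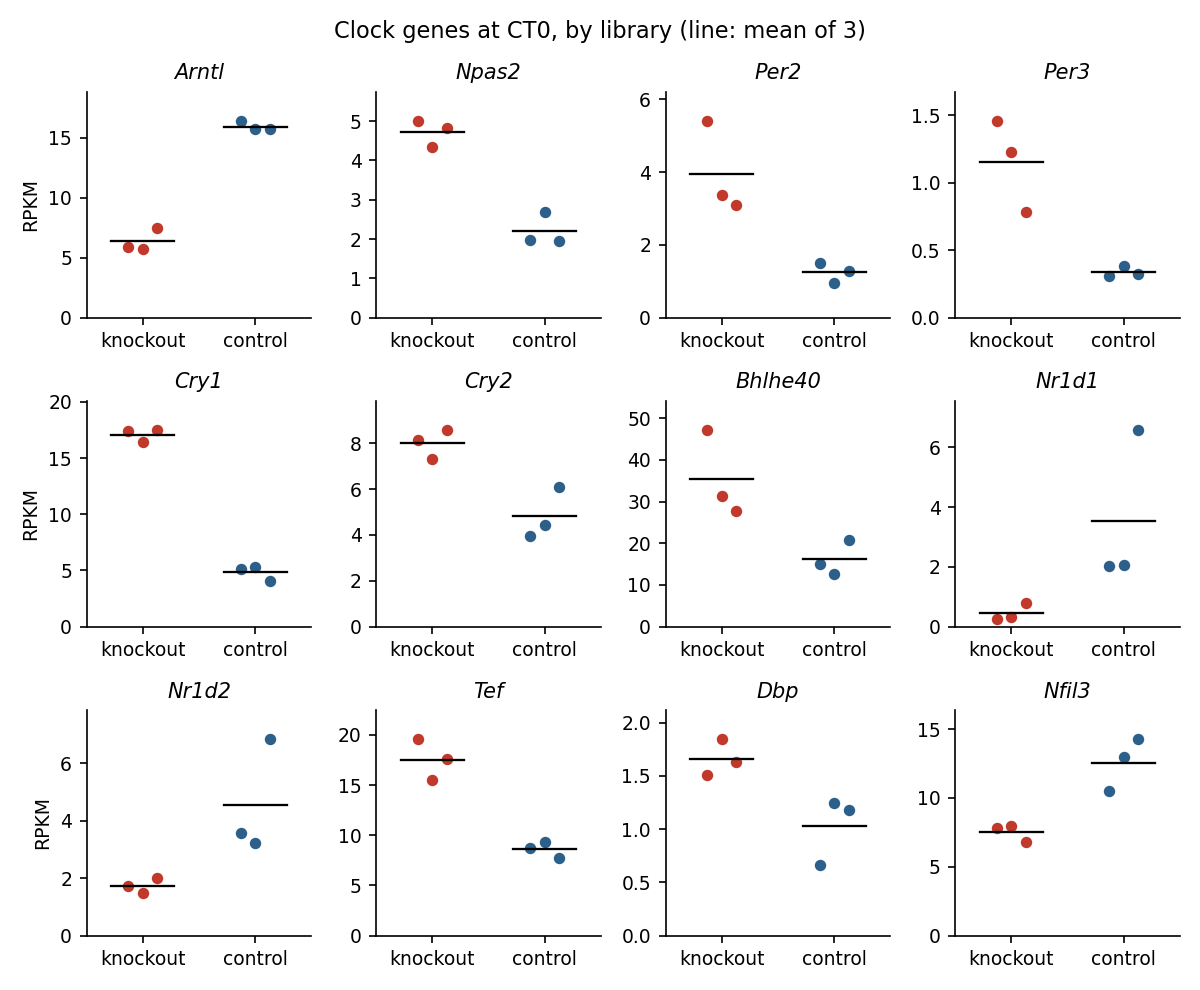
RPKM of 12 clock genes at CT0, with knockout libraries in red on the left and control libraries in blue on the right of each panel, and a line at the mean of 3. Arntl, Nr1d1, Nr1d2 and Nfil3 are lower and the other 8 are higher in knockout livers; Dbp and Nfil3 were not called.

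Of 25 tested genes of the drug-sensing receptors CAR and PXR and the Cyp2b, Cyp2c and Cyp3a enzymes, 4 were called higher and none lower (median 0.36). The list did not move in 1 direction, with differences from -3.19 to 3.52 and 7 below 0. By limma 16 had an unadjusted p under 0.05. Every knockout value was above every control value in 13 of them and below in 5. Among all tested genes 10.9% and 8.91% showed these patterns. Cyp2c55 had 54.4, 43.3 and 32.5 RPKM in knockout livers, against 2.41, 3.93 and 3.56 RPKM in control livers, the largest of these rises (3.52 ± 0.32, adjusted p = 0.00015). Cyp2c29, an abundant Cyp2c enzyme of mouse liver, had 2649, 1966 and 1785 RPKM in knockout livers, against 714, 885 and 749.7 RPKM in control livers (1.43 ± 0.17, adjusted p = 0.00132). Cyp2b10, a standard marker of CAR activity, had 24.1, 12.9 and 11.3 RPKM in knockout livers, against 0.987, 3.98 and 1.07 RPKM in control livers (2.85 ± 0.56, adjusted p = 0.027). Reads may be shared among the Cyp2c genes. Every knockout liver was above every control liver for these enzymes, although control replicate 2 had the highest Cyp2b10 of its group. Cyp3a59 had 46.0, 59.6 and 92.1 RPKM in knockout livers, against 15.5, 25.6 and 27.4 RPKM in control livers (1.49 ± 0.26, adjusted p = 0.0147), and reads may be shared among the Cyp3a genes. The receptors were not called, with Nr1i3 (CAR) at 38.2, 56.6 and 49.4 RPKM in knockout and 59.3, 88.5 and 87.4 RPKM in control livers (-0.69 ± 0.20, adjusted p = 0.133).

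Of 18 other drug-metabolizing cytochromes P450, 3 fell and 1 rose (median -0.07), a called share of 22.2%, against 1.58% of all tested genes. Cyp2a5 and Cyp2a4, neighbours so alike that reads may be shared, stood at 55.1, 32.6 and 47.6 RPKM and 4.06, 1.92 and 2.44 RPKM in knockout livers. In control livers Cyp2a5 had 88.6, 142 and 114 RPKM and Cyp2a4 had 6.81, 10.1 and 7.10 RPKM, and both fell (-1.34 ± 0.20, adjusted p = 0.00725 and -1.39 ± 0.24, adjusted p = 0.0135). Cyp2d40 had 21.9, 13.2 and 14.4 RPKM in knockout livers, against 40.6, 34.9 and 49.5 RPKM in control livers (-1.33 ± 0.19, adjusted p = 0.00473). Cyp2j6, which acts on arachidonic acid among other lipids, rose (0.56 ± 0.12, adjusted p = 0.0464). Cyp4a12a, a fatty acid omega-hydroxylase with male-biased expression in mice, had 3.24, 4.32 and 8.82 RPKM in knockout livers, against 23.3, 20.6 and 35.1 RPKM in control livers (-2.24 ± 0.46, adjusted p = 0.0339).

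Among 21 glutathione transferases, which conjugate glutathione to reactive compounds, 5 were called higher and none lower, and all 5 belong to the mu class. That is 23.8%, against 1.58% of all tested genes. By limma 13 of the 21 had an unadjusted p under 0.05. Every knockout value was above every control value in 8 of the 21 and below in 4. Among all tested genes 10.9% and 8.91% showed these patterns. Gstm3 had 540.5, 184 and 443 RPKM in knockout livers, against 37.0, 44.9 and 35.9 RPKM in control livers (3.16 ± 0.38, adjusted p = 0.00154). Gstm2 had 398, 201 and 375 RPKM in knockout livers, against 52.5, 50.7 and 48.7 RPKM in control livers (2.61 ± 0.23, adjusted p = 0.000123). For both genes knockout replicate 2 was the lowest of its group and still several times above the highest control liver. Gstm6 had 335, 229.5 and 254 RPKM in knockout livers, against 82.2, 78.0 and 86.4 RPKM in control livers (1.71 ± 0.13, adjusted p = 3.53e-05). Gstm1, the most abundant of them, had 2360.1, 2447 and 3126 RPKM in knockout livers and 997, 1276 and 1086 RPKM in control livers (1.24 ± 0.14, adjusted p = 0.000759), and Gstm7 rose less (0.73 ± 0.14, adjusted p = 0.022). The mu genes are close copies of each other and reads may be split among them. The list's median was 0.02, or -0.011 under quantile normalization. No gene of another class was called, and Gsta2, a class alpha gene, had 4.55, 4.20 and 6.52 RPKM in knockout and 10.9, 14.4 and 13.1 RPKM in control livers without overlap (-1.27 ± 0.32, adjusted p = 0.0765). None of the 18 tested genes of NRF2, a factor that controls many such enzymes, and of its targets was called by limma (4 with an unadjusted p under 0.05).

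Of 12 tested carboxylesterases, which hydrolyse esters of drugs and lipids, 4 fell and none rose (median -0.27). The called share was 33.3%, against 1.58% of all tested genes. Ces1d had 131, 123 and 124 RPKM in knockout livers, against 391.7, 583 and 502 RPKM in control livers (-1.94 ± 0.17, adjusted p = 0.000123). Ces1e had 30.7, 27.6 and 30.9 RPKM in knockout livers, against 87.4, 104 and 106 RPKM in control livers (-1.72 ± 0.14, adjusted p = 8.41e-05), and Ces1f had 120.1, 112 and 121 RPKM in knockout livers, against 261, 283 and 267 RPKM in control livers (-1.20 ± 0.09, adjusted p = 4.69e-05). Ces1b, with 6.35, 9.19 and 14.1 RPKM in knockout livers and 28.2, 32.4 and 39.3 RPKM in control livers, fell too (-1.76 ± 0.32, adjusted p = 0.0203). All 4 belong to the Ces1 group of neighbouring copies, among which reads may be shared. Ces1g, with 53.5, 64.1 and 79.7 RPKM in knockout and 107, 129.5 and 132 RPKM in control livers, just missed the threshold (-0.91 ± 0.20, adjusted p = 0.0513), and Ces1c, the most abundant of the group, had 1536, 1598 and 1691 RPKM in knockout and 1755, 1956 and 1774 RPKM in control livers (-0.18 ± 0.11, adjusted p = 0.514).

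The largest rise among the called genes was that of Sult1e1, the estrogen sulfotransferase. It had 76.9, 26.6 and 39.8 RPKM in knockout livers, against 3.86, 0.0417 and 1.83 RPKM in control livers (4.63 ± 0.75, adjusted p = 0.00994). Control replicate 2 had next to none, and the lowest knockout liver was well above the highest control liver. Its neighbour Sult1d1 had 98.6, 99.0 and 117 RPKM in knockout livers, against 41.4, 47.5 and 61.8 RPKM in control livers (1.07 ± 0.17, adjusted p = 0.0088). The UDP-glucuronosyltransferases Ugt1a1 and Ugt1a9, which share exons and so may share reads, fell (-0.55 ± 0.11, adjusted p = 0.0364 and -0.52 ± 0.11, adjusted p = 0.0399). In all, 2 of 22 tested conjugating enzymes of these families rose and 2 fell (median 0.16), and the 2 falls may not be separate calls.

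Of 30 tested transporters of organic ions and drugs, 3 fell and 1 rose (median -0.18). The called share was 13.3%, against 1.58% of all tested genes. Slc22a26, an organic anion transporter gene, was nearly absent in knockout livers at 0.0334, 0.490 and 0.0435 RPKM, against 6.57, 4.14 and 3.48 RPKM in control livers (-2.94 ± 0.43, adjusted p = 0.00615). Slc47a1, which encodes the exporter MATE1, had 28.8, 13.4 and 15.4 RPKM in knockout livers, against 45.1, 46.7 and 46.9 RPKM in control livers (-1.32 ± 0.21, adjusted p = 0.0088). Slc22a7, which encodes the anion transporter OAT2, had 5.85, 5.70 and 2.74 RPKM in knockout livers, against 13.1, 8.80 and 12.8 RPKM in control livers (-1.24 ± 0.24, adjusted p = 0.027). Slco1a4, an importer of organic anions, rose (0.88 ± 0.18, adjusted p = 0.0339). Nat8, an acetyltransferase that acts on cysteine conjugates, had 0.179, 0.188 and 0.388 RPKM in knockout livers, against 3.86, 5.57 and 3.53 RPKM in control livers (-2.67 ± 0.26, adjusted p = 0.000271). Among the genes of drug handling, the calls that ended without 1 library, counted as before, were those of Cyp2b10 (4 of 12, up to 0.106 without knockout CT0 replicate 1), Cyp2a4 (2 of 12, up to 0.0753 without control CT0 replicate 2), Cyp2j6 (9 of 12, up to 0.142 without knockout CT0 replicate 1), Cyp4a12a (5 of 12, up to 0.129 without control CT0 replicate 3), Gstm7 (5 of 12, up to 0.106 without control CT0 replicate 2), Ces1b (3 of 12, up to 0.0845 without control CT0 replicate 3), Ugt1a1 (8 of 12, up to 0.155 without control CT0 replicate 2), Ugt1a9 (10 of 12, up to 0.174 without control CT0 replicate 2), Slc22a7 (2 of 12, up to 0.105 without control CT0 replicate 3) and Slco1a4 (6 of 12, up to 0.116 without control CT0 replicate 3).

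**Figure D3:**
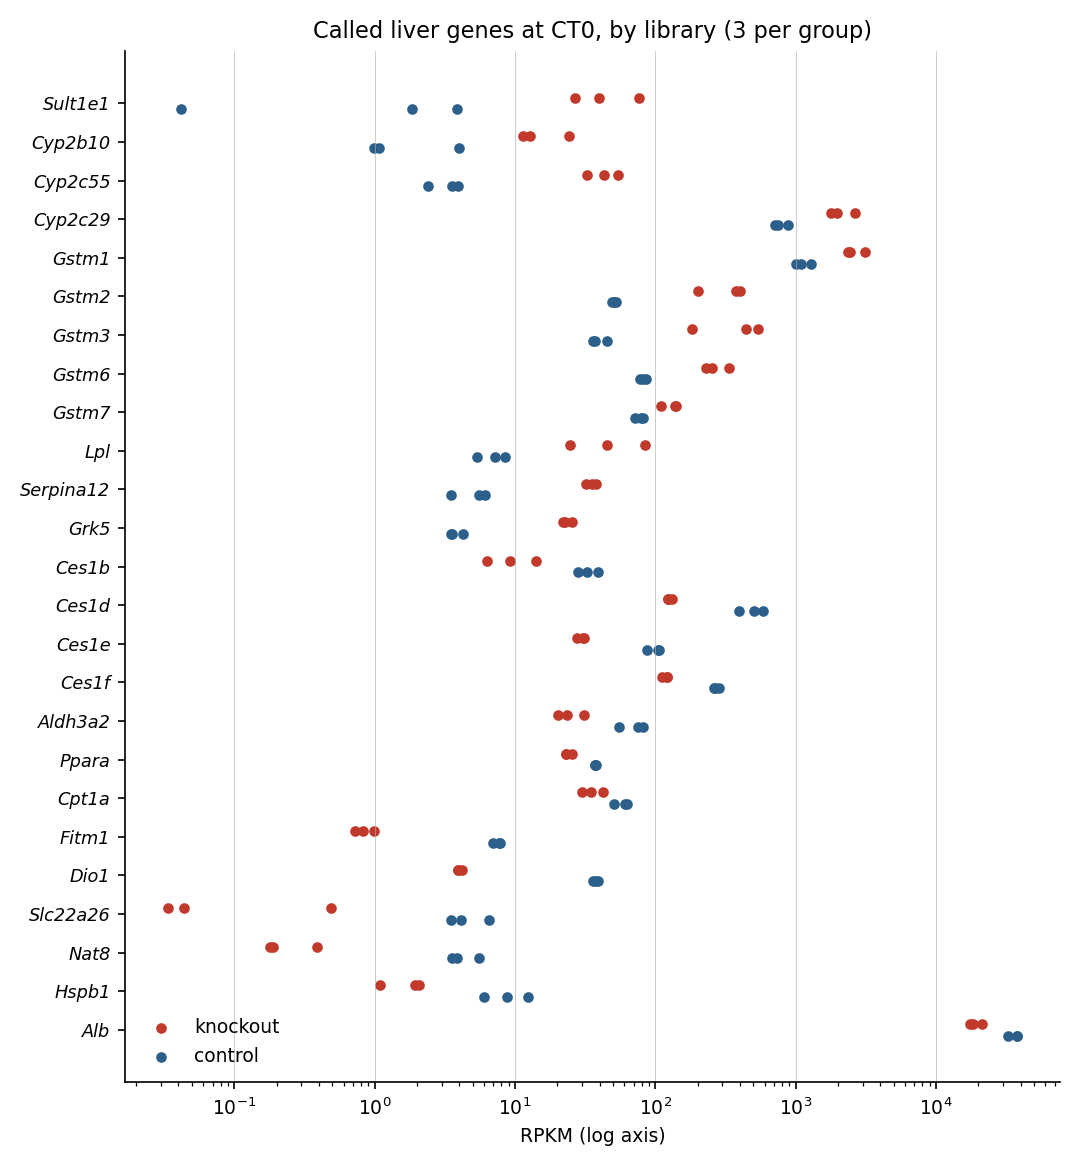
RPKM (log axis) of 25 called genes at CT0, with the 3 knockout libraries in red above the 3 control libraries in blue in each row. The Gstm genes lie to the right and the Ces1 genes to the left in knockout livers. No row overlaps, which held for all 182 called genes.

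Of 36 tested genes of fatty acid oxidation and ketogenesis, 5 fell (13.9%, against 1.58% of all tested genes) and none rose. Of the 36, 34 had a difference below 0 (median -0.35). In 24 of them every knockout value was below every control value, a pattern that 8.91% of all tested genes showed. Cpt1a, which lets fatty acids into mitochondria, had 29.9, 42.6 and 34.8 RPKM in knockout livers, against 50.6, 60.6 and 63.1 RPKM in control livers (-0.70 ± 0.15, adjusted p = 0.0399). Ppara, the nuclear receptor that activates this pathway, had 23.0, 25.4 and 23.2 RPKM in knockout livers, against 36.9, 37.5 and 37.1 RPKM in control livers (-0.63 ± 0.12, adjusted p = 0.0257). The peroxisomal thiolases Acaa1b (-1.24 ± 0.25, adjusted p = 0.0314) and Acaa1a (-0.78 ± 0.15, adjusted p = 0.0254), a pair that may share reads, fell as well. Aldh3a2, which oxidises fatty aldehydes, had 31.0, 23.4 and 20.3 RPKM in knockout livers, against 54.9, 81.6 and 75.6 RPKM in control livers (-1.49 ± 0.26, adjusted p = 0.0135).

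Lpl and Lipc, lipases that act on circulating lipoproteins, rose. Lpl had 24.7, 84.7 and 45.4 RPKM in knockout livers, against 5.40, 8.46 and 7.16 RPKM in control livers (2.64 ± 0.33, adjusted p = 0.00223). The knockout livers spread widely, and the lowest of them was above the highest control liver. Lipc, the hepatic lipase, had 109, 142 and 118 RPKM in knockout livers, against 65.1, 73.1 and 83.6 RPKM in control livers (0.73 ± 0.12, adjusted p = 0.0135). These were the 2 calls among 26 tested genes of lipid uptake (median 0.01, and -0.004 or -0.002 under the 2 other scalings). Fitm1, which helps form lipid droplets, had 0.831, 0.725 and 0.990 RPKM in knockout livers, against 7.65, 7.76 and 7.02 RPKM in control livers (-2.57 ± 0.21, adjusted p = 7.39e-05), the only call among 14 lipid droplet genes. In lipogenesis 1 of 27 genes rose, the desaturase gene Scd2 with 5.56, 4.78 and 5.50 RPKM in knockout livers, against 1.39, 1.85 and 2.14 RPKM in control livers (1.35 ± 0.21, adjusted p = 0.00864). The list's median was 0.17. Its summed genes came to 2431, 3044 and 9204 RPKM in knockout livers, from low to high. Control livers had 2880, 3402 and 3593 RPKM, so the groups overlapped and 1 knockout liver stood far above the rest. Of 27 cholesterol synthesis genes and SREBP2 targets none was called by limma, 9 had an unadjusted p under 0.05, and 22 had a difference above 0 (median 0.39). In bile acid synthesis and transport the only call of 27 was Slco1a4, named above. The calls that ended without 1 library were those of Cpt1a (6 of 12, up to 0.154 without control CT0 replicate 2), Ppara (5 of 12, up to 0.104 without control CT0 replicate 2), Acaa1a (4 of 12, up to 0.119 without control CT0 replicate 2), Acaa1b (6 of 12, up to 0.134 without control CT0 replicate 2), Aldh3a2 (3 of 12, up to 0.0764 without control CT0 replicate 2) and Lipc (1 of 12, up to 0.0616 without control CT0 replicate 2).

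In glucose metabolism 2 of 30 tested genes rose (6.67%, against 1.58% of all tested genes). Summed, the genes of this list came to 3481, 3813 and 6769 RPKM in knockout livers, from low to high. Control livers had 3352, 3458 and 3872 RPKM, so the groups overlapped and 1 knockout liver stood far above the rest. Gckr, which encodes the regulatory protein of glucokinase, had 169, 128 and 137 RPKM in knockout livers, against 86.1, 82.2 and 102 RPKM in control livers (0.68 ± 0.13, adjusted p = 0.0208). Ugp2, which makes the UDP-glucose used for glycogen, had 234, 175 and 188 RPKM in knockout livers, against 108, 107 and 133 RPKM in control livers (0.77 ± 0.16, adjusted p = 0.0364). In amino acid catabolism Kynu, an enzyme of tryptophan breakdown, was the only call of 47 tested genes (0.65 ± 0.13, adjusted p = 0.0289). That is 2.13%, against 1.58% of all tested genes. Of the 47, 35 had a difference above 0 (median 0.18), and 18 had an unadjusted p under 0.05 by limma. Every knockout value was above every control value in 16 of them and below in 2. Among all tested genes 10.9% and 8.91% showed these patterns. The methyltransferase gene Bhmt2 rose (0.42 ± 0.09, adjusted p = 0.0493), and Blvrb, a biliverdin reductase, fell (-0.51 ± 0.09, adjusted p = 0.0223). The most abundant genes called higher also included adenosine kinase, Adk (0.48 ± 0.10, adjusted p = 0.0414), and the complement genes C9 (0.84 ± 0.16, adjusted p = 0.0267) and C8g (0.36 ± 0.08, adjusted p = 0.0435). Each of these calls ended without at least 1 library: Gckr (4 of 12, up to 0.106 without control CT0 replicate 2), Ugp2 (7 of 12, up to 0.147 without control CT0 replicate 2), Kynu (4 of 12, up to 0.121 without control CT0 replicate 2), Bhmt2 (9 of 12, up to 0.197 without control CT0 replicate 2), Blvrb (4 of 12, up to 0.101 without control CT0 replicate 2), Adk (9 of 12, up to 0.183 without control CT0 replicate 2), C9 (4 of 12, up to 0.124 without control CT0 replicate 2) and C8g (11 of 12, up to 0.175 without control CT0 replicate 2).

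Dio1, the deiodinase that activates thyroid hormone in liver, had the largest fall among the called genes. It had 3.90, 3.90 and 4.19 RPKM in knockout livers, against 36.2, 37.7 and 39.2 RPKM in control livers, 8.5-fold lower (-3.09 ± 0.16, adjusted p = 2.5e-06). The 3 values of each group lay close together. Klf9, a transcription factor gene that responds to thyroid hormone and glucocorticoids, had 9.42, 11.6 and 11.7 RPKM in knockout livers, against 17.8, 15.2 and 16.2 RPKM in control livers (-0.57 ± 0.10, adjusted p = 0.0135). The other 8 of the 10 tested genes of thyroid hormone action were not called (median 0.02), and limma called none of 16 glucocorticoid-responsive genes (4 with an unadjusted p under 0.05) or of 14 genes of the growth hormone and IGF axis (2 with such a p). Hspb1, a small heat shock protein gene, had 2.08, 1.09 and 1.93 RPKM in knockout livers, against 6.04, 12.4 and 8.72 RPKM in control livers (-2.09 ± 0.33, adjusted p = 0.00778), the only call among 20 heat shock and cold-inducible genes.

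Genes of signalling and other functions were among the largest differences. Grk5, a kinase of G protein-coupled receptors, had 25.6, 21.9 and 22.7 RPKM in knockout livers, against 4.25, 3.56 and 3.52 RPKM in control livers (2.48 ± 0.18, adjusted p = 2.99e-05). Serpina12, which encodes the adipokine vaspin, had 35.1, 32.2 and 37.9 RPKM in knockout livers, against 5.52, 3.49 and 6.16 RPKM in control livers (2.71 ± 0.47, adjusted p = 0.0138). Ntrk2, the receptor of brain-derived neurotrophic factor, had 5.93, 3.72 and 5.03 RPKM in knockout livers, against 0.741, 0.345 and 0.127 RPKM in control livers (2.61 ± 0.24, adjusted p = 0.000131). Each of these separated the groups widely. Slc34a2, a phosphate transporter gene, had 14.1, 12.96 and 8.65 RPKM in knockout livers, against 2.60, 2.61 and 1.20 RPKM in control livers (2.26 ± 0.23, adjusted p = 0.00039). The defensin gene Defb1 (2.21 ± 0.43, adjusted p = 0.0267) and Nckap5 (1.92 ± 0.40, adjusted p = 0.0362) rose as well. On the other side, Col27a1, a collagen gene, had 0.538, 0.941 and 0.768 RPKM in knockout livers, against 2.20, 5.53 and 5.96 RPKM in control livers (-1.93 ± 0.30, adjusted p = 0.00778). Susd4 (-1.52 ± 0.30, adjusted p = 0.0314) and the unnamed gene AC163723.1 (-2.79 ± 0.40, adjusted p = 0.00567) fell too. The calls that ended without 1 library here were those of Serpina12 (2 of 12, up to 0.0767 without control CT0 replicate 2), Defb1 (4 of 12, up to 0.122 without control CT0 replicate 2), Nckap5 (9 of 12, up to 0.152 without control CT0 replicate 2) and Susd4 (5 of 12, up to 0.134 without control CT0 replicate 2).

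Alb, the most abundant transcript of hepatocytes, had 18465, 21242 and 17320.1 RPKM in knockout livers, against 37868, 37562 and 32747 RPKM in control livers (-0.93 ± 0.14, adjusted p = 0.00771; adjusted p = 0.214 with no filter on RPKM). Its share of summed RPKM was 3.79% to 4.74% in knockout livers and 7.11% to 8.05% in control livers. Saa4, an apolipoprotein of the serum amyloid family, had 20.0, 31.1 and 22.8 RPKM in knockout livers, against 98.8, 63.8 and 70.0 RPKM in control livers (-1.63 ± 0.17, adjusted p = 0.000539), the only call among 24 acute phase genes. Of the 24 acute phase genes, 21 had a difference below 0 (median -0.24), and 7 had an unadjusted p under 0.05 by limma. Every knockout value was below every control value in 6 of them and above in 1. Among all tested genes 8.91% and 10.9% showed these patterns. Car3, a carbonic anhydrase gene, fell (-0.93 ± 0.20, adjusted p = 0.0398). The neighbouring complement genes C2 (-0.41 ± 0.09, adjusted p = 0.0414) and Cfb (-0.39 ± 0.09, adjusted p = 0.042) and the gene model Gm20547 (-0.42 ± 0.09, adjusted p = 0.0362) fell by like amounts, and whether they share reads could not be checked. The transcription factor gene Foxa3 fell (-0.98 ± 0.22, adjusted p = 0.0497), with Alb the only calls among 17 hepatocyte markers (median -0.22). The summed hepatocyte markers, each above 0 in every library, came to 54610.0, 57873 and 64443 RPKM in knockout livers, from low to high, against 72521, 77729 and 80699 RPKM in control livers, without overlap. Without Alb the other 16 markers summed to 36145, 40553 and 43201 RPKM in knockout livers, against 39774, 40167 and 42831 RPKM in control livers, and the groups overlapped. The calls that ended without 1 library were those of Car3 (8 of 12, up to 0.138 without knockout CT0 replicate 3), C2 (8 of 12, up to 0.146 without knockout CT0 replicate 3), Cfb (9 of 12, up to 0.154 without knockout CT0 replicate 3), Gm20547 (8 of 12, up to 0.138 without knockout CT0 replicate 3) and Foxa3 (9 of 12, up to 0.158 without knockout CT0 replicate 3).

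Markers of other cells were read beside these values. The 11 tested neutrophil markers all had a difference above 0, with a median of 1.31, and none was called by limma, though 9 had an unadjusted p under 0.05. Their summed level, over all 12 markers, was 109, 183 and 234 RPKM in knockout livers, from low to high, against 34.7, 51.3 and 119 RPKM in control livers, and the groups overlapped. S100a8, for example, had 65.9, 43.7 and 84.3 RPKM in knockout and 41.2, 19.6 and 10.7 RPKM in control livers (1.58 ± 0.45, adjusted p = 0.117). Of 6 tested cholangiocyte markers Spp1, osteopontin, rose with 90.7, 148 and 117 RPKM in knockout livers, against 46.0, 61.5 and 48.6 RPKM in control livers (1.16 ± 0.22, adjusted p = 0.0262). Its call ended without some libraries: Spp1 (4 of 12, up to 0.0953 without control CT0 replicate 3). The summed cholangiocyte markers came to 96.9, 125 and 155 RPKM in knockout livers, against 51.9, 55.9 and 68.5 RPKM in control livers, most of it Spp1. The summed levels of Kupffer cell, endothelial and stellate cell markers overlapped between the groups. None of their 12, 11 and 11 tested members was called by limma, and 1, 0 and 1 had an unadjusted p under 0.05. No marker of these lists was at 0 in all 6 libraries, while 4 of 6 adipocyte and 4 of 6 measured pancreatic acinar markers were. The summed acinar markers came to 15.8, 18.5 and 19.6 RPKM in knockout livers, against 7.76, 9.90 and 11.2 RPKM in control livers. Summed erythroid and lymphocyte markers overlapped between the groups. The part of neutrophil RNA or of other cells in the differences was not tested.

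**Figure D4:**
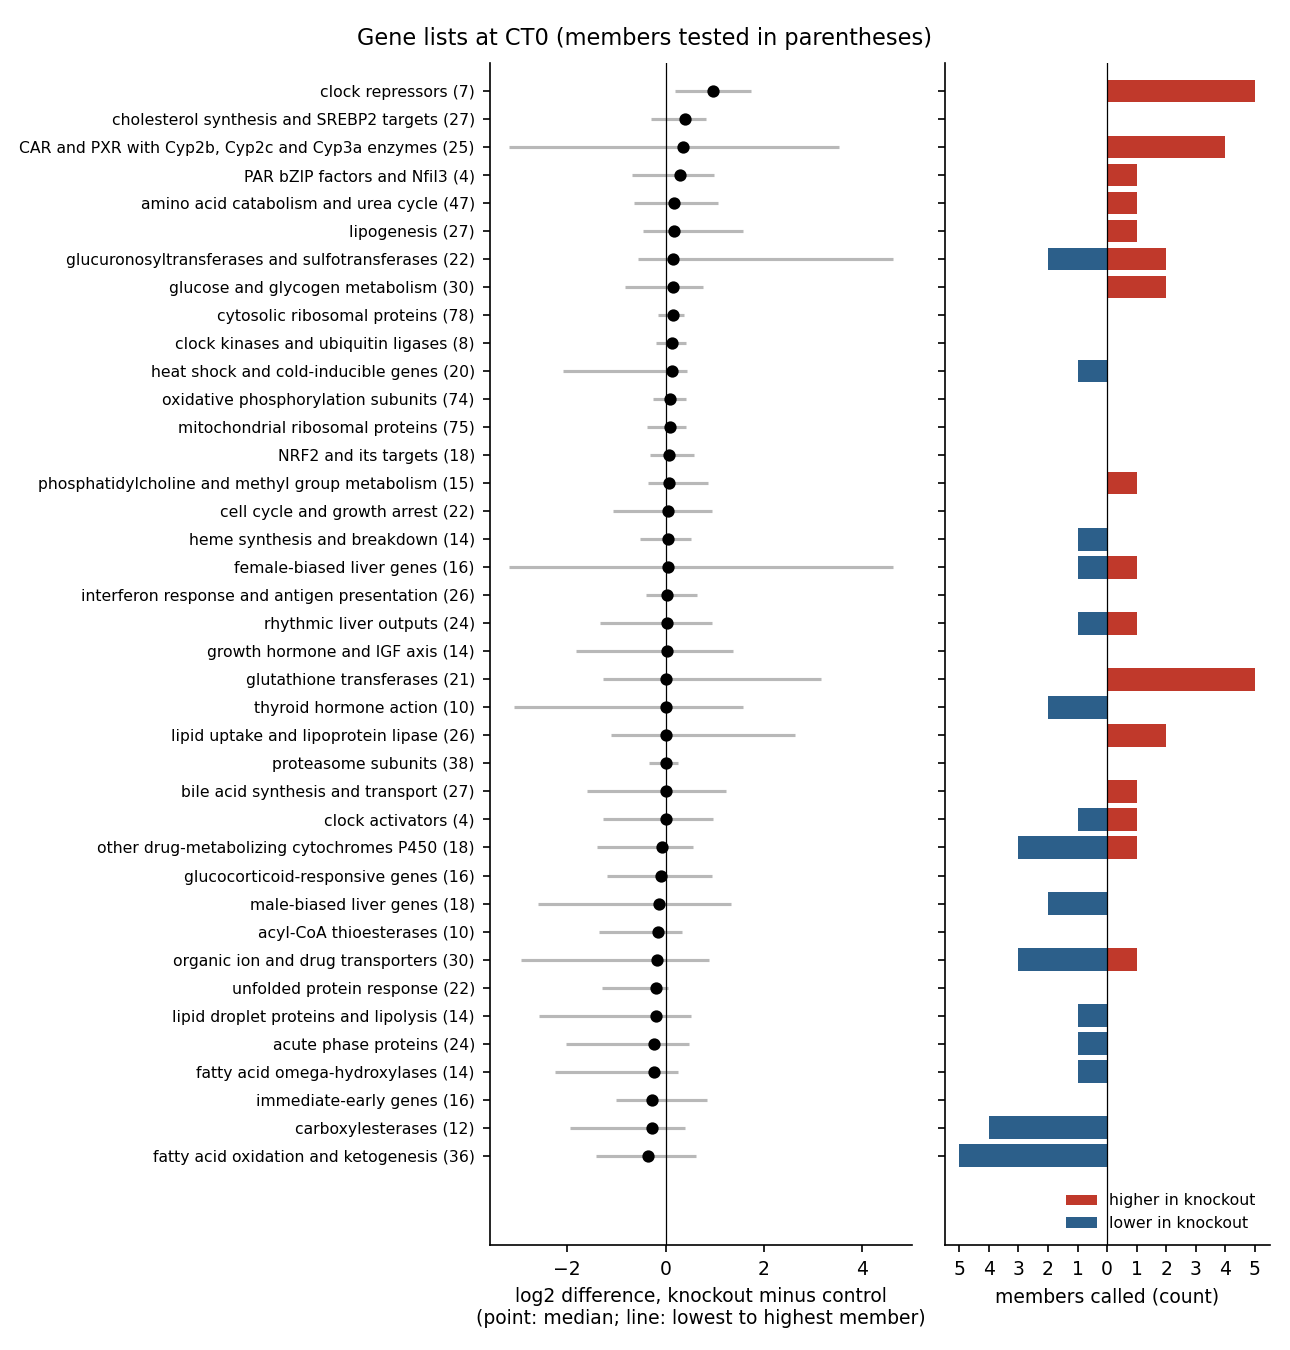
For each of 39 gene lists, the median difference at CT0 with the range of its members (left, log2) and the number of members called higher (red) or lower (blue) in knockout livers (right). Of the lists drawn, which leave out 1 pathway list and all cell type markers, clock repressors have the highest median, 0.96, and fatty acid oxidation and ketogenesis the lowest, -0.35.

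Of 78 cytosolic ribosomal protein genes 71 had a difference above 0, in 44 every knockout value was above every control value (10.9% among all tested genes), and none was called by limma (median 0.15; 21 with an unadjusted p under 0.05). None of 75 mitochondrial ribosomal protein genes, 74 subunits of oxidative phosphorylation, 38 proteasome subunits, 22 genes of the unfolded protein response, 16 immediate-early genes, 22 cell cycle genes, 26 interferon-response genes and 10 acyl-CoA thioesterases was called by limma. Their numbers with an unadjusted p under 0.05 were 7, 8, 3, 4, 2, 4, 2 and 2 in that order. Female-biased liver genes had 1 call higher and 1 lower among 16 tested (Sult1e1 and Cyp2a4), and male-biased genes had 2 lower among 18 (Cyp4a12a and Susd4). The called shares were 12.5% and 11.1%, against 1.58% of all tested genes. By limma 10 of the female-biased and 6 of the male-biased genes had an unadjusted p under 0.05. Every knockout value was above every control value in 5 female-biased genes and below in 5. For male-biased genes these numbers were 2 and 4. Among all tested genes the shares were 10.9% and 8.91%.

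In RefSeq order among the tested genes, 28 of the 179 called genes that could be placed lay beside a gene called in the same direction, in 12 runs. The longest runs were the 5 Gstm genes (Gstm7, Gstm6, Gstm3, Gstm2 and Gstm1, on chromosome 3) and Ces1d, Ces1e and Ces1f on chromosome 8. Pairs of related genes were Cyp2c55 with Cyp2c29, Sult1d1 with Sult1e1, Cyp2a4 with Cyp2a5, Ugt1a9 with Ugt1a8, and Cfb with C2. Pairs of unlike genes, named here for their position after their values were seen, included Aldh3a2 with Slc47a1, Bhmt2 with Dmgdh, Susd4 with Tlr5, and Il17rb with Chdh. Shared reads can make copies of a gene move together, and how often neighbours would be called together otherwise was not tested.

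Most differences at CT0 were not shown to differ from those at CT12. The test of the difference between the times called 151 of 11553 genes (1.31%), of which 18 were among the 182 called at CT0. For 8 of the 18 the difference at CT0 was the higher of both values, and for 10 it was the lower. Of the 182, 10 had opposite signs at the 2 times, and 4 of these, Arntl, Per2, Per3 and Tef, were called at both.

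Arntl was one of them. At CT12 it had 4.37, 3.59 and 4.01 RPKM in knockout livers, against 1.26, 0.680 and 1.21 RPKM in control livers (1.55 ± 0.16, adjusted p = 6.58e-05), so the difference at CT0 minus that at CT12 was -2.82 ± 0.22 (adjusted p = 0.000145). The knockout livers at CT12 lay above all control livers at CT12 and below all knockout livers at CT0. Npas2 rose more at CT12 (2.93 ± 0.13) than at CT0, by an amount of -1.97 ± 0.19 as CT0 minus CT12 (adjusted p = 0.000365). Clock, level at CT0, was higher in knockout livers at CT12 (1.05 ± 0.16; difference between times -1.03 ± 0.22, adjusted p = 0.0455).

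Other clock genes crossed 0 in the opposite direction. Per3 was higher in knockout livers at CT0 and lower at CT12 (-1.71 ± 0.19), a difference of 2.67 ± 0.27 (adjusted p = 0.000508). Per2 (-0.80 ± 0.20 at CT12; difference 2.13 ± 0.29, adjusted p = 0.00356) and Tef (-0.96 ± 0.11 at CT12; difference 1.94 ± 0.16, adjusted p = 0.000145) did likewise, and Dbp, not called at CT0, fell at CT12 (-2.10 ± 0.29; difference 2.62 ± 0.41, adjusted p = 0.00903). Cry1 rose at CT12 too (1.71 ± 0.11), and no difference between the times was detected (0.02 ± 0.15, adjusted p = 0.976).

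Outside the clock, Cyp2a5 fell less at CT0 than at CT12 (-3.91 ± 0.20), a difference of 2.56 ± 0.29 (adjusted p = 0.00115), and Cyp2a4 by 2.56 ± 0.34 (adjusted p = 0.00293). Dio1 fell more at CT0 than at CT12 (-1.84 ± 0.16; difference -1.25 ± 0.22, adjusted p = 0.0196), and Klf9, lower at CT0, was not called at CT12 (0.16 ± 0.10; difference -0.74 ± 0.14, adjusted p = 0.0241). Loxl4, a lysyl oxidase, had 16.6, 19.9 and 16.8 RPKM in knockout and 7.21, 6.89 and 3.20 RPKM in control livers at CT0 (1.61 ± 0.24, adjusted p = 0.00725), and its rise was smaller at CT0 than at CT12 (difference -2.0 ± 0.34, adjusted p = 0.0146). Slc34a2 (-1.55 ± 0.33, adjusted p = 0.0408), Dtx4 (0.68 ± 0.13 at CT0; -1.60 ± 0.18, adjusted p = 0.00127) and 1110067D22Rik (0.82 ± 0.14 at CT0; -1.32 ± 0.19, adjusted p = 0.00513) also rose less at CT0, while Gm14403 was higher at CT0 (1.24 ± 0.27, adjusted p = 0.0429) and not called at CT12 (difference 2.02 ± 0.38, adjusted p = 0.0243). Among 24 tested genes of known rhythmic liver output, 2 were called at CT0, Dtx4 higher and Cyp2a5 lower (median 0.04). That is 8.33%, against 1.58% of all tested genes. The test of the difference between the times called 15 of the 24, against 1.31% of all tested genes. The list was chosen with earlier results of these data known, and whether that choice raised these shares was not tested. Of the calls at CT0 in this paragraph, leaving out 1 library ended those of Cyp2a4 (2 of 12, up to 0.0753 without control CT0 replicate 2), Dtx4 (6 of 12, up to 0.0963 without knockout CT0 replicate 3), 1110067D22Rik (2 of 12, up to 0.0625 without control CT0 replicate 2) and Gm14403 (10 of 12, up to 0.159 without control CT0 replicate 3). The count of 151 depended on single libraries too, at 98, 81 and 91 without control CT0 replicates 1, 2 and 3, at 92 and 87 without knockout CT12 replicates 2 and 3, and at 92 and 89 without control CT12 replicates 1 and 3.

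**Figure D5:**
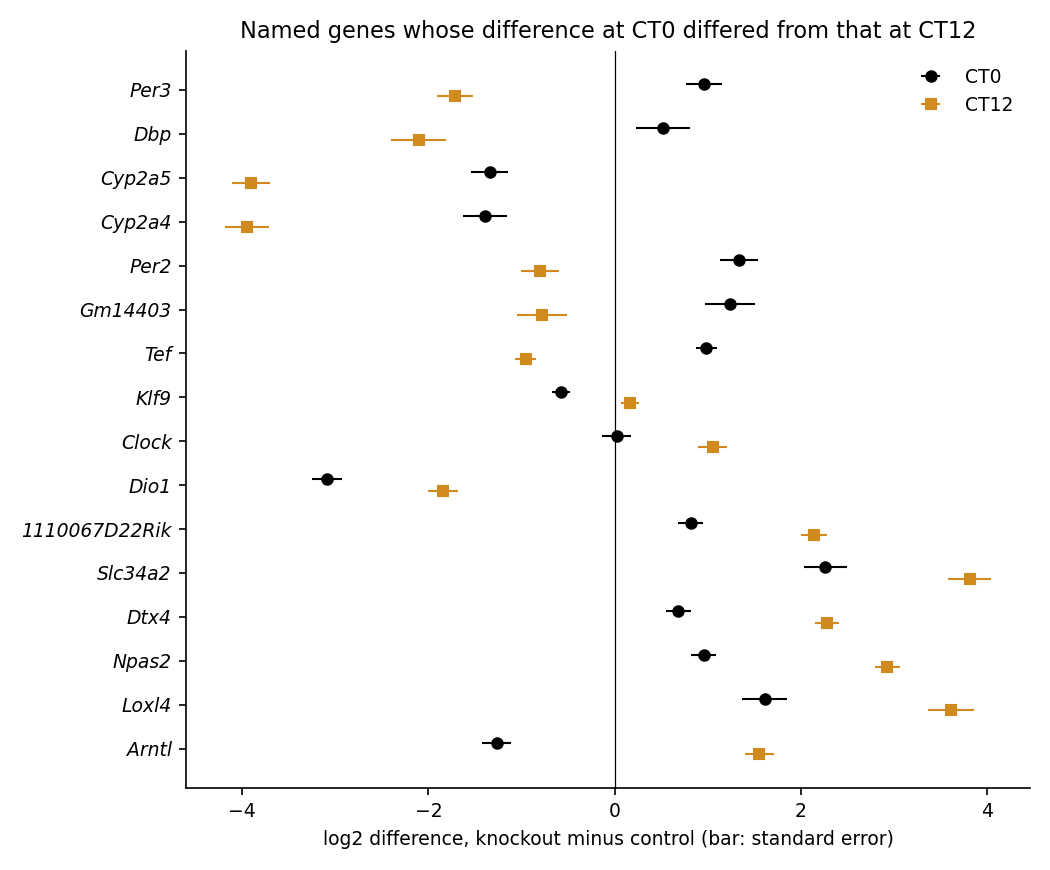
Difference between knockout and control liver (log2, bars are standard errors) at CT0 (black circles) and CT12 (orange squares) for 16 named genes for which the difference between the times was called. Arntl lies at -1.27 at CT0 and on the other side of 0 at CT12, and Per2, Per3 and Tef cross 0 in the opposite direction.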

How the data were processed

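Libraries of liver RNA were made with the TruSeq RNA Sample Prep Kit v2, per the labels' protocols. The authors deposited 1 RPKM value per transcript and library. Per the submitters' processing notes, the tools included bedtools 2.19.1, Bowtie and TopHat2 and the mouse build was mm9; the annotation, strand setting and counting rules were not given in those sources. Sharing of reads between copies of a gene can therefore not be settled.

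The 46585 transcripts of the 12 Bmal1 libraries were joined, and each of 22322 symbols kept 1 transcript, that of the largest average log2(RPKM + 0.5). Genes with a mean of at least 0.5 RPKM over the 6 CT0 libraries were fitted with limma 3.58.1 (R 4.3.3; lmFit, contrasts.fit, eBayes with trend), with 4 group means and 12 libraries, two-sided, Benjamini-Hochberg threshold 0.05. The method was tested on simulated data. RPKM steps gave whole reads, within 0.05 and up to a factor per gene, for 99.5% of genes above 0; genes with very many reads are left out of those sums. At most 0.006% of values were shared exactly by any 2 libraries. Names and promoters came from RefSeq GRCm38.p6; no coordinates of mm9 are given.

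The samples compared, the 50 lists of genes and the rule for naming them were chosen with earlier results of these data known. Named genes were Arntl, the 15 largest called differences in each direction, the 5 most abundant called genes in each direction, up to 8 called members of each list, all members of the 4 clock lists, and the 6 called genes with the largest difference between the times in each direction; other genes were named as examples after their values were seen. Of 1114 list entries, 4 matched no symbol. Some genes that the rule names are not reported here. The Nr1d1 RNA-seq and 4C files of the series were not used. Alternatives were another pseudocount, filter, scaling, transcript rule or variance model, only the 6 CT0 libraries, a replicate block, and each library left out.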

Additional observations from a re-analysis of the deposited data

Results flagged for a closer look

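For 16 named genes the difference between knockout and control at CT0 differed from that at CT12 by the limma test of the difference itself. Values are the CT0 difference minus the CT12 difference on the log2 scale. The difference at CT0 was the higher one for Per3 (2.67), Dbp (2.62), Cyp2a5 (2.56), Cyp2a4 (2.56), Per2 (2.13), Gm14403 (2.02) and Tef (1.94). It was the lower one for Klf9 (-0.74), Clock (-1.03), Dio1 (-1.25), 1110067D22Rik (-1.32), Slc34a2 (-1.55), Dtx4 (-1.60), Npas2 (-1.97), Loxl4 (-2.0) and Arntl (-2.82). With 3 libraries per group, single libraries that stand apart were not looked for by a test.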

How the results depend on the processing

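With only the 6 CT0 libraries in the fit, 59 genes were called higher and 50 lower, and with no filter on RPKM 67 and 45 (and 124 between the times); the cause was not tested. Leaving out 1 library gave 46 to 110 genes called higher, 32 to 99 called lower and 81 to 139 whose difference differed between the times. The replicate block gave 97, 77 and 121, with 147 of the 182 calls shared. Whether the replicate numbers mark the pairs of mice could not be settled. Deviations of same-numbered knockout and control livers correlated at 0.04, 0.04 and -0.04 at CT0. At CT12 they correlated at 0.01, 0.12 and 0.11. Not every liver correlated best with its own number, and correlations this small cannot exclude pairs. The other pseudocounts, scalings, filters and transcript and variance rules gave 96 to 123 called higher, 79 to 116 lower and 136 to 160 between the times. Of 80 named genes called at CT0, 38 kept the call without each library in turn, 41 under all other alternatives and 34 under every one. Of 1934 values tried for named genes 8 changed sign, all of 4 genes not called. Leaving out 1 library gave -0.62 to 0.98 for Bhlhe41 (-0.16 with pseudocount 0.1), -0.08 to 0.03 for Arntl2, -0.06 to 0.21 for Hlf and -0.01 to 0.06 for Clock. Cyp3a59, Klf9 and Slc47a1, which kept the call without each library, lost it with only the 6 CT0 libraries. Many named genes whose calls ended without some library lost them in that fit too. Of the clock they were Cry2, Bhlhe40, Per3, Nr1d1 and Nr1d2. Of drug, lipid and glucose handling they were Cyp2a4, Cyp2j6, Slc22a7, Ugt1a1, Ugt1a9, Cpt1a, Lipc, Gckr and Ugp2. The others were Kynu, Bhmt2, Blvrb, Adk, C9, C8g, Defb1, Susd4, C2, Cfb, Gm20547, Car3, Foxa3 and Gm14403. Alb lost it with no filter and under quantile normalization. Quantile normalization gives the highest-ranked gene the same value in every library and put the Alb difference at 0.00. That loss was fixed in advance and does not bear on the Alb difference. Arntl kept its call throughout, at -1.38 to -1.20. List medians near 0 changed sign under some alternatives, among them lipogenesis (-0.080 without knockout CT0 replicate 1) and female-biased genes (-0.420 without control CT0 replicate 1). Read depth limits genes of low RPKM most: 26 of the 182 called genes averaged under 2 RPKM.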
